A study of Homo sapiens with 8 samples.

Results

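The unannotated long noncoding RNA (lncRNA) loci are the 269 transcribed regions that the authors assembled from their reads in LUHMES neurons and listed apart from known lncRNAs. They are all the loci of the authors' deposited annotation of unknown lncRNAs, with no further selection by value made here. Each has 1 assembled transcript. The authors' lncRNA table has 1177 lines, and all 269 loci were found in it with the same identifier, position, strand, length and exon number. A separate FPKM for each of the 8 libraries (fragments scaled to transcript length and library size, a level per length) stood on 1018 of these lines. Of them, 225 were unannotated loci and 793 annotated lncRNAs. The other 44 loci, 27 antisense, 10 sense and 7 intergenic, hold other quantities under the same headings and have a position here but no level.

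LUHMES is a conditionally immortalised human midbrain line, wild type by its label, that stops dividing and takes on a dopaminergic neuron character when differentiated. Cells differentiated for 6 days received antimycin A at 25 µM, which blocks respiratory complex III, with oligomycin at 10 µM, which blocks the ATP synthase, for 8 h, and control cells received the DMSO vehicle; the differentiation medium of both groups held tetracycline, dibutyryl cAMP and GDNF. There were 4 treated and 4 vehicle libraries, with differentiation numbers 2 to 5 in each group, used here as replicate numbers and listed in that order. All 8 come from this 1 line, and the series text calls the batches independent, with 4 technical replicates each, so p-values measure the spread between differentiations.

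Long noncoding RNAs are transcripts without a recognised protein product. Many start next to a protein-coding gene and run the other way, or lie across a gene on its opposite strand, and such antisense RNAs can act on the gene they overlap or have no known role. An assembler places a transcript on a strand by the library's strand marking or by the bases at the ends of its introns, which read GT and AG in most human introns. No source at hand states whether the authors' assembly and counting used strand marking. The 70 loci with 1 exon have no intron ends, yet each is listed on a strand. Whether the FPKM and the gene counts were split by strand is not stated, so reads from a locus and from a gene on the other strand cannot be told apart here.

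The treated libraries held 93.8 to 109 M estimated reads and the vehicle libraries 93.7 to 110 M. In the gene counts, all 10 listed neuron markers reached 1 CPM (counts scaled to a fixed library total) in at least 1 library, as did 6 of 12 dopaminergic markers and 0 of 5 microglia markers. SLC6A3, the dopamine transporter, had a mean of 580 CPM, against 0.118 for SLC18A2, the vesicular monoamine transporter. The summed level of the 5 astrocyte markers was 2.73 to 3.71 CPM in vehicle and 28.4 to 30.2 CPM in treated libraries. Only 1 of the 5, the glutamate transporter SLC1A3, reached 1 CPM, with 2.36 to 3.42 in vehicle and 28.1 to 29.9 in treated libraries. GFAP and AQP4 averaged 0.00127 and 0.0291 CPM over the 8 libraries. Vehicle libraries were higher, with no overlap, in the summed neuron markers (6678 to 7151 CPM, against 5706 to 5843 in treated libraries), the 6 proliferating progenitor markers (332 to 418 against 289 to 318) and the 5 oligodendrocyte markers (27.5 to 37.1 against 20.2 to 25.6). Not all members went with their sum. SNAP25 was higher in treated libraries with no overlap (92.3 to 103 against 64.3 to 83.4 CPM), while STMN2, DCX, NEFL and GAP43 were lower. Of the progenitor list NES (131 to 149 against 103 to 115) and SOX2 (0.732 to 0.955 against 0.253 to 0.447) were higher in treated libraries. MKI67, TOP2A and CCNB1 were lower, all with no overlap. The dopaminergic sums overlapped (575 to 717 and 517 to 684). The part of these lists in the results was not tested. Vehicle replicate 2 stood apart on the second principal component of the lncRNA table (-12.0, against 2.89 to 7.67 in the other vehicle libraries). In bulk RNA, fewer cells of a type and less RNA per cell cannot be told apart.

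The loci were short and had few exons. Spliced length ran from 202 to 12287 bases with a median of 515, against a median of 1236 for annotated lncRNAs in the same table. There were 70 loci with 1 exon, 157 with 2, 29 with 3 and 13 with 4 or more, up to 7. The 2-exon form made up 58.4% of the loci and 31.0% of the annotated lncRNAs, of which 39.8% had 1 exon. The loci were spread over 24 chromosomes, 145 on the plus and 124 on the minus strand, with 33 on chromosome 1, 26 on chromosome 2 and 1 on the mitochondrial genome. By the authors' classes, 168 were antisense to a gene, 55 intergenic, 38 sense overlapping, 7 bidirectional and 1 intronic. The names join "lnc" to a gene, which was the nearest protein-coding gene for 50 loci and another gene for 219. A name is shared by more than 1 locus in 12 cases, so the assembly number is given where needed. The spans of 22 loci overlap that of another, and these are not independent of each other.

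Most loci shared bases with exons of known genes on the opposite strand. In the GENCODE 29 annotation on the same build (hg38), 165 of the 269 loci (61.3%) shared bases with exons of a protein-coding gene on the opposite strand, and 126 had at least 50% of their bases there, counted over the exons of all such genes. Bases on same-strand coding exons occurred in 15 loci, and 37 loci touched no annotated gene span. Same-strand exons of a GENCODE lncRNA were met by 2 loci, and 20 overlapped a lncRNA gene that RefSeq now lists on the same strand.

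The sequence of lnc-CRHR2 (MSTRG.25113) is shown because it had the largest rise among the loci that passed the test. It is a 2-exon RNA of 258 bases at chr7:30621390-30622463 on the minus strand, and 98.8% of its bases lie opposite exons of GARS (now GARS1), which encodes glycyl-tRNA synthetase. Its first exon, at chr7:30622322-30622463, could be read from GENCODE exons. The last 10 bases, in capitals, run up to the intron.
lnc-CRHR2 exon 1: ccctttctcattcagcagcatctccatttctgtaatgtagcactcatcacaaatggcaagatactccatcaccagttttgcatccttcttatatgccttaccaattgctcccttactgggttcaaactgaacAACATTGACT
The intron that follows is 816 bases long. GARS has an intron of the same length at this place on the other strand, and the locus's intron is displaced from it by 5 bases at both ends, so that the locus follows the exon pattern of GARS in reverse.

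**Figure D1:**
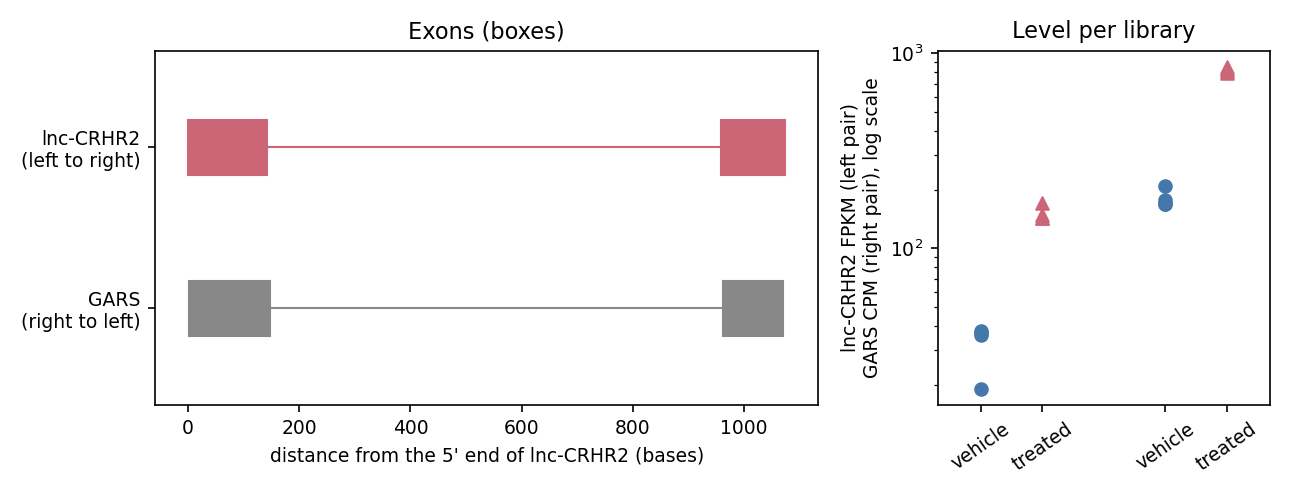
Left, exons (boxes) and intron (line) of lnc-CRHR2 and of the 2 GARS exons opposite it, by distance in bases from the 5′ end of lnc-CRHR2. Right, level per library on a log axis, with FPKM for lnc-CRHR2 and CPM for GARS (circles vehicle, triangles treated, n = 4 each): the exons of the genes nearly coincide, and for each gene all 4 treated libraries lie above all 4 vehicle libraries.

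Introns placed like those of the gene on the other strand were found in other loci too. The 199 spliced loci held 261 introns, with a median of 1945 bases and a range of 20 to 420688. Of these, 34 introns in 33 loci lay within 15 bases, at both ends, of an annotated intron of the opposite strand, and 1 intron did so on its own strand. In 4 of the 34 both ends coincided, and in 7 the intron was displaced but of the same length. The 27 such loci with FPKM values held 2 that rose and 0 that fell in treated neurons (limma on log2(FPKM + 1), Benjamini-Hochberg adjusted p under 0.05), where 8.25% of all 1018 lines rose and 36.5% fell, 44.8% in all. The 33 loci were short, with a median length of 286 bases. Of all 108 loci of up to 500 bases with values, 8 rose and 9 fell. The difference from all lines was not tested.

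A second and larger set of introns, 60 in 48 loci, lay whole inside 1 annotated exon of the opposite strand. These introns were short, with a median of 84 bases against 3814 for the others. Of the 8 loci with at least 2 such introns, 4 had intron lengths that were all multiples of 1 unit of 42 bases or more. In lnc-ZBTB4, opposite POLR2A, whose product, the large subunit of RNA polymerase II, ends in a tail of repeats, the 3 introns are multiples of 42 bases. In lnc-CCM2, opposite NACAD, the 3 introns of 360, 120 and 120 bases are multiples of 120. The intron ends of these 2 loci are shown because similar sequence recurs from intron to intron. For each intron the last 15 exon bases and first 2 intron bases stand before the last 2 intron bases and first 15 bases of the next exon, with intron bases in capitals, read on the locus's strand.
lnc-ZBTB4 intron 1, donor end: gagtacttgggagagGT
lnc-ZBTB4 intron 1, acceptor end: AGgttggggtatactct
lnc-ZBTB4 intron 2, donor end: gtgtagttgggactaGT
lnc-ZBTB4 intron 2, acceptor end: AGgtgggtgaatagctt
lnc-ZBTB4 intron 3, donor end: gagtagctgggagagGT
lnc-ZBTB4 intron 3, acceptor end: AGgtgggtgagtagctg
lnc-CCM2 intron 1, donor end: gagtcctggggtaagGT
lnc-CCM2 intron 1, acceptor end: AGgtgaggccctcttca
lnc-CCM2 intron 2, donor end: gagtcctggggtaagGT
lnc-CCM2 intron 2, acceptor end: AGgtgaggccctcttca
lnc-CCM2 intron 3, donor end: gagtcctggggtaagGT
lnc-CCM2 intron 3, acceptor end: AGgtgaggccctcttca
The donor and acceptor ends of all 3 lnc-CCM2 introns are the same, letter for letter. In 92 introns the bases at both ends could be read, and the run of identical bases shared by the ends (a direct repeat, along which the intron could be placed at several positions with the same spliced sequence) was at least 6 bases in 57. Among the 60 introns inside an opposite exon it was at least 6 bases in 43, with a median of 17. Its greatest length was 208 bases in lnc-CCM2 and 20 in lnc-ZBTB4, where it was 2 bases at the intron of 126 bases. The ends printed above hold too few intron bases to show these lengths. Intron end bases could be read for 95 introns and were GT-AG in 68, GC-AG in 15, AT-AC in 7 and other pairs in 5. Bases could be read only where they lie on annotated exons, and 60 of the 92 introns are those inside an opposite exon. These shares therefore need not hold for all 261 introns.

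**Figure D2:**
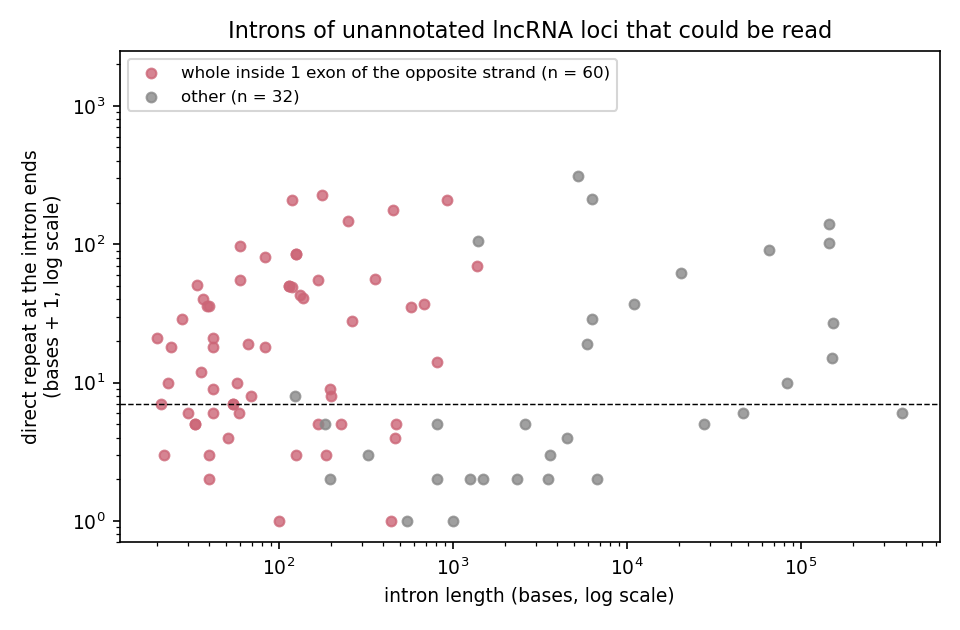
Each point is 1 of the 92 introns whose ends could be read, by intron length and by the length of the direct repeat at its ends plus 1 base (both log axes), with the dashed line at a repeat of 6 bases. The 60 introns inside an exon of the opposite strand are mostly short, and 43 of them are on or above the line.

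16 loci began inside a promoter window that RefSeq sequences give, from 250 bases before to 50 after a gene's start (GRCh38.p14). For 14 of these loci FPKM values were at hand, and 9 fell and 0 rose by the same test (6 and 0 when FPKM were scaled to a median ratio of 1). Over all 1018 lines 36.5% fell and 8.25% rose, and under that scaling 207 lines fell and 217 rose. The difference from all lines was not tested. The windows of the 4 largest falls among these loci are shown, on the strand of the RefSeq gene, with the bases that belong to the locus in capitals.
lnc-MARCH10-8 in the TLK2 window, chr17:62478574-62478873, plus strand: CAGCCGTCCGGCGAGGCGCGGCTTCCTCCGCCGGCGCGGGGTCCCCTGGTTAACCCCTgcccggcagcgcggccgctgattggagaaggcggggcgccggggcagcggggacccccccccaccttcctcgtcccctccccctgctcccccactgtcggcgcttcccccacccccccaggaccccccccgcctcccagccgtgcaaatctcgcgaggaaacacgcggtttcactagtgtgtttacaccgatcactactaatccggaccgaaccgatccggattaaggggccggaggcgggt
lnc-FOXN2-6 in the LOC124907765 window, chr2:48047112-48047411, plus strand: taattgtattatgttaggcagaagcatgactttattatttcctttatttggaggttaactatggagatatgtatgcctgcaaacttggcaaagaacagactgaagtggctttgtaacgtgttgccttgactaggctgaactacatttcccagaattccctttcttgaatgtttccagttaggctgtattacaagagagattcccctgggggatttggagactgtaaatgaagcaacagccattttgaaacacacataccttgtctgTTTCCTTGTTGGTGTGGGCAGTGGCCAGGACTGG
lnc-TACR1-1 in the LOC105374809 window, chr2:74958830-74959129, minus strand: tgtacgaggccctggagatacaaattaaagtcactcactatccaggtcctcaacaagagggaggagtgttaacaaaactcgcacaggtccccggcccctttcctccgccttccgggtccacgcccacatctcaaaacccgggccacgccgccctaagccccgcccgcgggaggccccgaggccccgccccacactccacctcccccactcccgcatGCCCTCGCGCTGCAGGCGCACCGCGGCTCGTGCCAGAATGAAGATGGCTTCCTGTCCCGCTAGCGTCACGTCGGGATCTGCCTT
lnc-B3GNT4 in the LOC101593348 window, chr12:122226192-122226491, plus strand: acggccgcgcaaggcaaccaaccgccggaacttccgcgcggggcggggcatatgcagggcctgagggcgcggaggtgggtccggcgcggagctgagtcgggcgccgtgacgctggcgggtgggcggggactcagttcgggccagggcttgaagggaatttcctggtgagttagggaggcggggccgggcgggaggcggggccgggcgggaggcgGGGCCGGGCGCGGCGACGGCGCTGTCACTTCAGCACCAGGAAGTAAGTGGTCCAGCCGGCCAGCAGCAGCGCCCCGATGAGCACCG
The TLK2 window is that of a RefSeq start inside the span GENCODE gives for TLK2, a kinase gene of chromatin assembly. The lnc-MARCH10-8 locus begins before that start on the opposite strand, 19973 bases from the GENCODE start. It lies within TLK2, with 445 of its bases opposite TLK2 exons. The windows of the other 3 belong to RefSeq noncoding genes, each of which lies on the same strand as its locus. Over all 18 windows that hold a locus start, the median GC content was 68.5% (range 41.7 to 78.0%), against 58.7% over 34943 windows. Motifs were searched on both strands. TGATGNAA, the C/EBP-ATF composite element, was in 1 of 18 windows and 3.62% of all, and TGACNNNGC, the core of the antioxidant response element, in 5 of 18 and 13.3% of all. Some loci start in more than 1 of these overlapping windows: the 18 windows belong to 16 loci, and the 5 with TGACNNNGC to 4 of them. The fixed letters of no motif contain those of another. TGACGTCA, the cAMP response element (1.84% of all windows), the endoplasmic reticulum stress response element (0.0773%) and the E-box CACGTG (7.23%) were in 0 of 18. The window with TGATGNAA is that of SLC3A2, a subunit of amino acid transporters, whose counts rose from 63.5 ± 12.8 to 811 ± 49.1 CPM (SD, n = 4; log2 fold change 3.67), and whose antisense locus, lnc-CHRM1, is among those with no level.

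Levels of the loci were low and uneven. Mean FPKM over 8 libraries had a median of 1.64 in the loci and 1.31 in annotated lncRNAs. It was under 1 in 63 loci, from 1 to under 5 in 132, from 5 to under 20 in 18, and 20 or more in 12. The highest belonged to lnc-MT-ND6 (191), lnc-TPTE MSTRG.18130 (111), lnc-CRHR2 (92.1), lnc-MEP1B-2 (75.9) and lnc-TPTE MSTRG.18118 (71.5). NORAD, an abundant annotated lncRNA, had 125 ± 7.30 FPKM in vehicle and 111 ± 6.24 in treated cells (SD, n = 4). All 1018 intact lines reach 1 FPKM in at least 1 library, and the lowest such maximum is 1.00 FPKM. Whether the authors selected on this level is not known. If they did, a locus near it may be listed through 1 group alone. Its change and the lack of overlap would then not be independent of the listing.

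Libraries of 1 group differed more than 10-fold at 60 of the 225 loci (26.7%) and at 66 of the 793 annotated lncRNAs (8.32%), and 3 of those 60 loci passed the test. At 30 loci at least 1 library is listed at 0. Such a value need not mean absence: MALAT1, one of the most abundant nuclear lncRNAs, is listed at 0.0262 to 89.5 FPKM in treated and 0.0178 to 130 FPKM in vehicle libraries, while the gene counts of the same libraries gave it 1339 to 1566 and 932 to 1510 CPM.

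Of the 225 loci, 16 rose and 62 fell in treated neurons (limma on log2(FPKM + 1), Benjamini-Hochberg adjusted p under 0.05 over all 1018 lines), and 147 passed in neither direction. Over all 1018 lines 44.8% passed, 8.25% rose and 36.5% fell, so a smaller share of the loci than of the table fell (27.6%). The median log2 fold change, treated over vehicle, was -0.23 in the loci, -0.25 in annotated lncRNAs and -0.25 over all lines. The vehicle and treated groups did not overlap at 58 loci with treated lower and at 19 with treated higher (36.6% and 9.33% of all lines). FPKM carry no scaling beyond the library total, and the split of calls depends on it: scaled so that the median ratio of annotated lncRNAs is 1, which moves the median over all lines from -0.25 to 0.01, 38 loci rose and 35 fell. With the TMM factors of the gene counts, an alternative chosen after seeing the data, 23 rose and 53 fell. All 16 rises were among the calls under both scalings, and 35 and 53 of the 62 falls. Without treated replicate 2 the count of rises was 10, and without vehicle replicate 2 there were 21 rises and 69 falls. Fold changes on this scale understate changes of low loci.

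**Figure D3:**
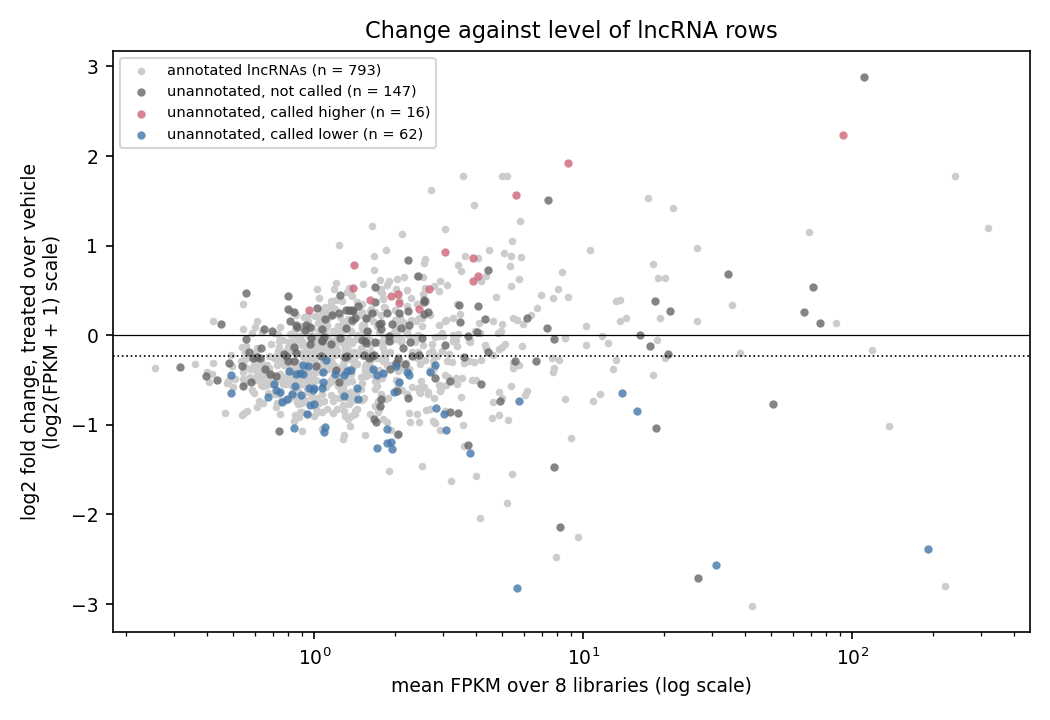
Log2 fold change, treated over vehicle, on the log2(FPKM + 1) scale against mean FPKM over 8 libraries (log axis), for 793 annotated lncRNAs (light) and the 225 loci, coloured by call. The dotted line is the median of the loci (-0.23), and most loci lie between 1 and 5 FPKM with changes under 1 in size.

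Falls were most frequent among long loci. Of the 56 loci over 2000 bases, 36 fell and 4 rose (71.4% called), of the 61 over 500 and up to 2000 bases 17 fell and 4 rose (34.4%), and of the 108 up to 500 bases 9 fell and 8 rose (15.7%). The median standard error of the log2 fold change was 0.0912, 0.194 and 0.215 in these classes, so that a change of a given size is less easily called in short loci. The median fold change itself went from -0.44 over -0.21 to -0.06, and under the median-ratio scaling from -0.23 over 0.03 to 0.20, where short loci had 20 rises and 2 falls. Annotated lncRNAs had the same order, with 56.9%, 45.5% and 33.6% called. Among the 22 single-exon loci over 2000 bases 17 fell and 0 rose (12 and 2 under the median-ratio scaling). Of 95 annotated single-exon lncRNAs over 2000 bases, 56 fell and 8 rose in the FPKM as deposited.

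Overlap class went with length. Of 102 loci with at least 50% of their bases on opposite coding exons (median length 339 bases over all such loci), 10 fell and 5 rose (4 and 15 under the median-ratio scaling), with a median of -0.05 that became 0.21 under that scaling. Of 32 with some but fewer bases there (median length 2899), 21 fell and 1 rose (15 and 2), with medians of -0.43 and -0.23. Antisense loci as the authors class them held 34 falls and 8 rises of 141, intergenic loci 17 and 5 of 48, sense loci 5 and 3 of 28, and bidirectional loci 6 and 0 of 7. Under the median-ratio scaling the antisense split was 23 falls and 20 rises, the intergenic split 8 and 12, the sense split 1 and 6, and the bidirectional split 3 and 0. In the FPKM as deposited, annotated antisense lncRNAs held 125 falls and 27 rises of 347, and intergenic ones 78 and 27 of 209. Annotated sense lncRNAs held 31 and 11 of 103, and bidirectional ones 76 and 3 of 132. No test was made of these differences between classes. Loci whose introns lie inside an opposite exon held 5 falls and 0 rises of 41 (3 and 7 under the median-ratio scaling).

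**Figure D4:**
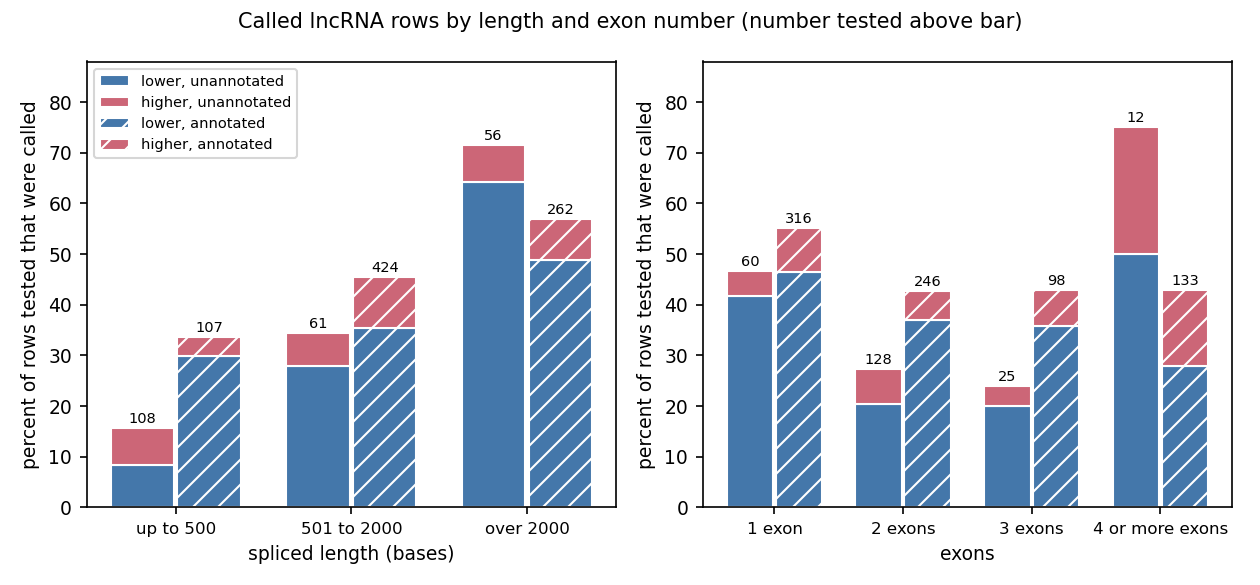
Percent of tested lncRNA rows called lower (blue) and higher (red) by spliced length and by exon number, with plain bars for the unannotated loci and hatched bars for annotated lncRNAs, and the number tested above each bar. By length, the share of the loci called is largest over 2000 bases (71.4%) and smallest up to 500 bases (15.7%); by exon number it is largest in the 12 loci with 4 or more exons (75.0%).

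The largest rise was that of lnc-CRHR2. Its FPKM was 37.8, 36.7, 19.1 and 36.1 in vehicle and 143, 144, 149 and 172 in treated libraries, so that every treated library lay above every vehicle library. The mean went from 32.4 ± 8.90 to 152 ± 13.4 FPKM (SD, n = 4), a 4.68-fold higher level (log2 fold change 2.24 ± 0.230 SE, limma adjusted p = 0.000166). GARS, on the other strand, was counted at 181 ± 18.7 CPM in vehicle and 825 ± 25.1 CPM in treated cells (2.18 ± 0.0801 SE, edgeR quasi-likelihood adjusted p = 2.88e-08). These values come from the same libraries and, as said, reads of the strands cannot be told apart.

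Next was lnc-LIPI (MSTRG.18112), a 4-exon locus of 974 spliced bases over 249942 bases at chr21:8196269-8446210, in the region of the ribosomal RNA genes on the short arm of chromosome 21. It had 3.65, 0.473, 2.34 and 8.13 FPKM in vehicle and 9.67, 12.7, 20.3 and 13.1 in treated libraries, with no overlap (log2 fold change 1.93 ± 0.517 SE, limma adjusted p = 0.0176). The vehicle libraries alone spanned more than 10-fold.

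lnc-NMRK2 (MSTRG.13818), 203 bases in 2 exons, lies on the plus strand at chr19:3956898-3962151 within the span of DAPK3, a death-associated protein kinase gene, but on none of its coding exons. Its level was 1.75, 2.45, 2.81 and 2.45 FPKM in vehicle and 8.09, 8.81, 9.85 and 8.88 in treated libraries, a 3.76-fold rise with no overlap (1.56 ± 0.117 SE, limma adjusted p = 4.68e-05). DAPK3 rose from 56.9 ± 8.44 to 112 ± 18.8 CPM (0.98). lnc-PIAS4 (MSTRG.13824) lies with 83.8% of its 277 bases opposite EEF2, the translation elongation factor, and had 1.22, 2.05, 1.68 and 1.88 FPKM in vehicle and 3.64, 4.19, 7.31 and 2.48 in treated libraries (0.93 ± 0.250 SE, adjusted p = 0.0175). EEF2 rose by 0.30 on the log2 scale.

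2 further rises also lay off annotated coding exons. lnc-KCNJ3, a single exon of 717 bases at chr2:154697518-154698234, sits 65 bases from KCNJ3, which encodes a G protein-gated potassium channel subunit, on the same strand. It had 1.83, 2.99, 2.32 and 2.81 FPKM in vehicle and 5.25, 5.48, 5.95 and 4.58 in treated libraries (0.87 ± 0.128 SE), and KCNJ3 went from 42.8 ± 1.45 to 85.2 ± 7.33 CPM (0.99). lnc-SLITRK5, 4 exons and 3564 bases, lies 552477 bases from SLITRK5, a synaptic adhesion gene. Here the locus rose from 0.766 ± 0.165 to 2.04 ± 0.143 FPKM with no overlap (0.79 ± 0.0766 SE), while SLITRK5 fell from 32.0 ± 4.46 to 16.4 ± 1.18 CPM (-0.97).

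The remaining large rises were 1.55-fold to 1.91-fold in mean FPKM. They were lnc-MRPL37 (0.66), within the SSBP3 gene; lnc-SH2D3C (0.61), 965 bases from FPGS; lnc-FREY1 (0.52), opposite MAPK8IP1; lnc-POTEB3-2 (0.51); lnc-MCEE (0.46); and lnc-PSMC3IP-3 (0.43), which overlaps the RefSeq lncRNA HSD17B1-AS1 on its strand. 3 of these calls rest on single libraries or settings. The adjusted p of lnc-FREY1 was 0.0256, and 0.0523 to 0.0638 without treated replicate 2, 3 or 4. That of lnc-SH2D3C was 0.0189, 0.0510 without treated replicate 2 and 0.0592 with the replicate block. That of lnc-PSMC3IP-3 was 0.0490, and over 0.05 in 6 of the 8 fits that each left out 1 library (up to 0.104, without treated replicate 4). It was also 0.0687 with a pseudocount of 0.1, 0.0514 with no variance trend and 0.0738 with the replicate block.

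**Figure D5:**
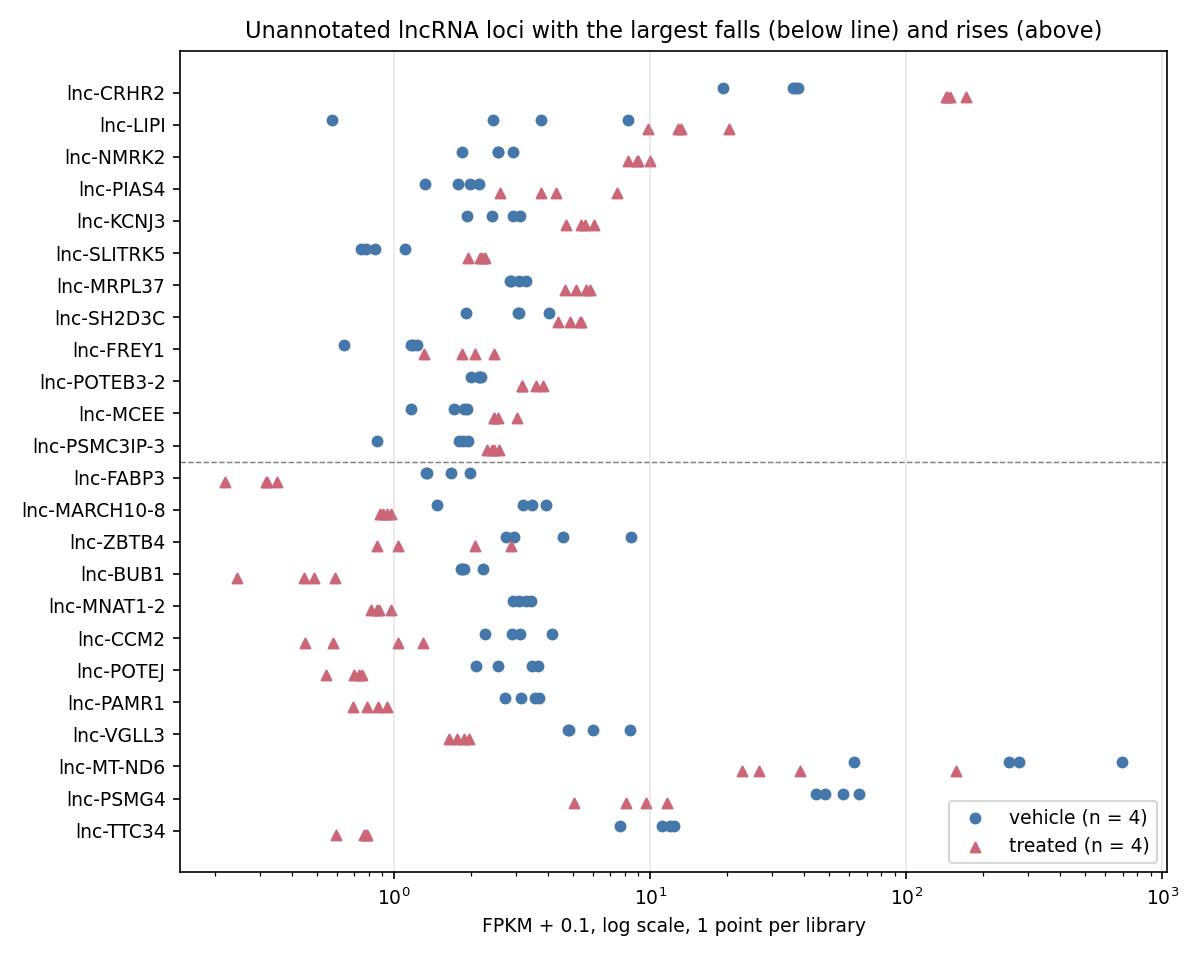
FPKM plus 0.1 in each library (log axis; circles vehicle, triangles treated, n = 4 each) for the 12 largest falls and 12 largest rises that passed the test, ordered by log2 fold change. The groups are apart in all but lnc-MT-ND6 and lnc-ZBTB4.

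lnc-TTC34 (MSTRG.122) had the largest fall. It is an intergenic RNA of 2532 bases in 2 exons at chr1:2917137-2925447, 96036 bases from its nearest coding gene, ACTRT2, which was not expressed enough to test. The FPKM was 7.52, 11.1, 11.8 and 12.2 in vehicle and 0.686, 0.661, 0.675 and 0.491 in treated libraries. The mean went from 10.7 ± 2.15 to 0.628 ± 0.0920 FPKM (SD, n = 4; log2 fold change -2.82 ± 0.145 SE, limma adjusted p = 1.34e-05), with every treated library far below the vehicle range.

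lnc-PSMG4 (MSTRG.23391) lies whole opposite the exon of TUBB2B, a beta-tubulin gene of neurons, at chr6:3224630-3225725, with an intron of 55 bases whose ends read GC and AG. It had 44.4, 48.0, 65.1 and 56.7 FPKM in vehicle and 9.49, 11.5, 7.94 and 4.93 in treated libraries, a 6.32-fold lower mean (-2.56 ± 0.245 SE, adjusted p = 0.000116). TUBB2B itself had 1446 ± 125 CPM in vehicle and 1111 ± 80.1 CPM in treated cells (-0.38 ± 0.0827 SE).

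For 2 further falls the values of locus and nearest gene, from the same libraries, stand side by side. lnc-PAMR1 (MSTRG.4294), bidirectional with FJX1, a secreted four-jointed homologue whose start is 315 bases away, fell from 3.17 ± 0.432 to 0.721 ± 0.107 FPKM (-1.27 ± 0.0891 SE). FJX1 fell by 1.03 on the log2 scale. lnc-POTEJ, across CFC1, a Nodal co-receptor gene, fell from 2.84 ± 0.741 to 0.580 ± 0.0933 FPKM (-1.26), and CFC1 by 0.67.

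4 more falls are given in the same way. lnc-VGLL3, 6578 bases in 4 exons inside the span of CADM2, a synaptic adhesion gene, had 8.23, 5.89, 4.67 and 4.72 FPKM in vehicle and 1.78, 1.66, 1.54 and 1.86 in treated libraries (-1.32 ± 0.158 SE). CADM2 had a log2 fold change of 0.22 that did not pass (edgeR adjusted p = 0.115). lnc-BUB1, inside the span of BCL2L11, which encodes the cell death protein BIM, fell from 1.84 ± 0.187 to 0.341 ± 0.145 FPKM (-1.08), and lnc-FABP3, across SERINC2, from 1.48 ± 0.311 to 0.200 ± 0.0561 FPKM (-1.04). BCL2L11 (-0.15) and SERINC2 (0.08) did not pass. lnc-MARCH10-8, the 6036-base single exon that begins inside TLK2, had 1.37, 3.81, 3.36 and 3.10 FPKM in vehicle and 0.875, 0.803, 0.835 and 0.777 in treated libraries (-1.05 ± 0.207 SE), while TLK2 fell by 0.18.

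Both loci whose intron ends are printed were among the 12 largest falls. lnc-CCM2 had 2.16 to 4.03 FPKM in vehicle and 0.347 to 1.20 in treated libraries, with no overlap (-1.21 ± 0.194 SE), and NACAD fell by 0.81. lnc-ZBTB4 had 8.33, 2.83, 4.47 and 2.63 FPKM in vehicle and 2.77, 0.933, 1.97 and 0.756 in treated libraries, where the groups overlap (-1.06 ± 0.361 SE, adjusted p = 0.0446). It did not pass when treated replicate 3, 4 or 5, or vehicle 2 or 4, was left out (adjusted p 0.0652 to 0.107), nor under either scaling, and POLR2A fell by 0.35.

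Of 132 annotated bidirectional lncRNAs, 76 fell and 3 rose, with a median log2 fold change of -0.42. All 7 unannotated bidirectional loci had a negative log2 fold change, from -0.13 to -1.27, and 6 fell. Beside lnc-PAMR1 these were lnc-SMNDC1-2, whose start is 108 bases from that of DUSP5, a phosphatase gene of the ERK pathway, lnc-TTC29, lnc-ZNF705D-2, lnc-VWA8-10 and 1 not named here. Of the genes they face, POU4F2, next to lnc-TTC29, had a log2 fold change of -1.12, and INTS10, next to lnc-CSGALNACT1, the locus that did not pass, had one of 0.25. The value of lnc-CSGALNACT1 itself (-0.13) became 0.07 under the median-ratio scaling. Among the 12 loci of 4 or more exons with values, 6 fell and 3 rose (3 and 3 under the median-ratio scaling). The locus of most exons, lnc-NDFIP2-17 with 7 exons over 283026 bases of chromosome 13, had 5.66, 3.79, 3.20 and 2.85 FPKM in vehicle and 2.56, 1.79, 1.07 and 1.69 in treated libraries with no overlap (-0.81 ± 0.213 SE, adjusted p = 0.0164, and 0.0982 under the median-ratio scaling).

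The most abundant locus was mitochondrial. lnc-MT-ND6 (MSTRG.28605) covers positions 5761 to 14673 of the minus strand in 2 exons of 6310 bases, which take in all 525 bases of MT-ND6, a complex I subunit gene of that strand, and it has 5310 bases opposite coding exons. These are 1812 of MT-ND5, 1378 of MT-ND4, 917 of MT-CO1, 567 of MT-CO3, 346 of MT-ND3 and 297 of MT-ND4L, and adjoining genes share some of these bases. It had 696, 252, 275 and 62.3 FPKM in vehicle and 157, 22.8, 38.2 and 26.6 in treated libraries. The groups overlap, and the fall was just past the threshold (-2.39 ± 0.837 SE, adjusted p = 0.0489). It missed the threshold when treated library 3, 4 or 5, or vehicle library 2, 3 or 4, was left out (adjusted p 0.0968 to 0.114; -1.87 without vehicle replicate 2), with a pseudocount of 0.1, or under either scaling. In the gene counts MT-ND6 went from 90.2 ± 42.1 to 17.2 ± 2.37 CPM (log2 fold change -2.39 ± 0.272 SE, edgeR quasi-likelihood adjusted p = 3.95e-05). MT-ND6 had 152 CPM in vehicle replicate 2, 59.2 to 80.6 in the other vehicle libraries and 14.8 to 20.1 in treated libraries. MT-ND5, the nearest coding gene and on the opposite strand, went from 3760 ± 3153 to 1103 ± 118 CPM (-1.77 ± 0.436 SE, edgeR quasi-likelihood adjusted p = 0.00562). It had 8468 CPM in vehicle replicate 2, 1772 to 2472 in the other vehicle libraries and 945 to 1195 in treated libraries. The 2 loci named lnc-OR4F16-8 lie on chromosome 1 opposite nuclear copies of mitochondrial genes (MTND2P28 and MTATP6P1). One of them (MSTRG.15) is listed at 373 FPKM in vehicle replicate 2 and at 0.845 to 1.33 in the other vehicle libraries, and neither passed. The log2 fold change of MSTRG.15 was -0.77, and 1.11 without vehicle replicate 2.

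Several loci with high levels or large fold changes did not pass, and libraries of 1 group differed widely there. lnc-TPTE MSTRG.18130, beside the ribosomal RNA genes of chromosome 21, had 0, 30.9, 66.8 and 105 FPKM in vehicle and 84.0, 177, 191 and 231 in treated libraries (2.88 ± 1.37 SE, adjusted p = 0.123). lnc-TPTE MSTRG.18118, which holds 153 bases of the 5.8S ribosomal RNA gene RNA5-8SN2 on its strand, had 57.5 ± 29.2 FPKM in vehicle and 85.4 ± 43.7 in treated libraries, where the groups overlap (0.53 ± 0.531 SE). lnc-LTBP1 had 105, 0, 34.6 and 28.4 FPKM in vehicle and 0.325, 45.1, 0 and 0 in treated libraries (-2.71 ± 1.74 SE). lnc-MRPS27, which lies almost whole opposite the large exon of MAP1B, a microtubule-associated protein gene, had 7.36, 3.51, 5.61 and 36.3 in vehicle and 0.685, 0.111, 12.2 and 0 in treated libraries (-2.14 ± 0.964 SE, adjusted p = 0.106; -2.99 with an adjusted p of 0.0149 without treated replicate 4). MAP1B itself had 5468 ± 720 CPM in vehicle and 5530 ± 859 CPM in treated cells.

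An abundant and a long locus did not pass in the FPKM as deposited. lnc-MEP1B-2 had 66.6, 66.4, 83.8 and 72.2 FPKM in vehicle and 89.8, 79.5, 82.9 and 65.9 in treated libraries (0.13 ± 0.147 SE, adjusted p = 0.486). All of its 857 bases lie on exons of AC021224.1, a lincRNA of GENCODE 29 on the same strand, and 765 lie opposite HNRNPA1P7, a processed pseudogene. The longest locus, lnc-CYP20A1 with 12287 bases, had 1.79 to 2.11 FPKM in vehicle and 2.15 to 2.26 in treated libraries (0.08 ± 0.0586 SE, adjusted p = 0.300). Both passed as higher under the median-ratio scaling (0.57 and 0.38).

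The nearest protein-coding genes of the 269 loci were 255 in number, and 239 could be tested in the gene counts. Of these, 75 rose and 71 fell (edgeR quasi-likelihood test, adjusted p under 0.05), and 93 did not pass. Over all 19785 genes tested 57.9% passed, 27.7% higher and 30.2% lower. The neighbours' median log2 fold change was 0.02, against -0.02 over all genes. As loci and neighbours were measured in the same libraries, no share of equal signs was taken.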

How the data were processed

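Poly(A) RNA libraries of 4 treated and 4 vehicle LUHMES differentiations were used. The authors aligned and assembled reads with HISAT2, SAMtools and StringTie on hg38, per the submitters' processing notes. No source at hand gives versions or says whether strand was used. The authors deposited FPKM per lncRNA and library in a table. On 159 of its 1177 lines other quantities stand under the same headings, and these lines, 44 of them of unannotated loci, were left out. The deposited gene tables hold estimated counts, which were rounded to whole numbers and expressed as CPM here.

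FPKM were tested as log2(FPKM + 1) with limma 3.58.1 (R 4.3.3, variance prior with trend) over all 1018 lines, and gene counts with the edgeR 4.0.16 quasi-likelihood test over 19785 genes. P-values were Benjamini-Hochberg adjusted, with a threshold of 0.05. The fits hold all 8 libraries and no covariate. Library totals were 93.7 to 110 M estimated reads. Overlaps used GENCODE 29 exons on hg38, and promoter windows came from RefSeq (GRCh38.p14). Tables and figures were made with Python 3.11.15, pandas 2.3.3 and matplotlib 3.10.9.

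Loci named were the 12 largest rises and 12 largest falls past the threshold with a mean of at least 0.5 FPKM, the 5 of highest mean FPKM, the locus of most exons, the longest, and the 3 largest changes that did not pass, each with its nearest protein-coding gene. A few loci and genes that this rule or the classes would name are not reported here. Loci named for their sequence, their promoter window or their bidirectional class, and lnc-OR4F16-8, were chosen after their values were seen. Members and lists were chosen with earlier results of these data known.

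Alternatives were a pseudocount of 0.1, a filter on low FPKM (0.5 in 4 libraries), 2 scalings, no variance trend, a replicate block, each library left out in turn and, for gene counts, DESeq2 1.42.0, its size factors and no filter. Replicates with the same number did not deviate together (correlations of -0.108, -0.242, -0.0825 and -0.294), and the main fits did not use numbers as pairs. With 4 libraries per group these correlations cannot exclude a shared batch. Tested on simulated data of 1018 lines, limma recovered 67 of 100 changes of 0.5 and 83 of 100 of 1 log2 unit. It made 7 false calls among the lines left unchanged. In simulated counts of 19482 genes edgeR recovered 93 of 100 changes of 1 and 100 of 100 of 2, with 6 false calls. The limma values were drawn independently for each line and normal on the log scale. The loci were not simulated apart from annotated lncRNAs, so these rates need not hold for them.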

Additional observations from a re-analysis of the deposited data

Results flagged for a closer look

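In 62 groups of 4 libraries, those of the loci named by the rule, 10 held 1 library that stood far from the other 3 (Dixon's test at the 95% level). For independent, normally distributed values the test flags about 1 in 20 groups. These loci were picked mostly by change or level and share the same libraries, so that rate need not hold here. Vehicle replicate 2 was that library in 4 of the 10. It had 0.756 FPKM of lnc-PSMC3IP-3 (1.69 to 1.84 in the other vehicle libraries), 0.537 of lnc-FREY1 (1.06 to 1.13), 1.79 of lnc-CYP20A1 (2.08 to 2.11) and 2.12 of lnc-BUB1 (1.72 to 1.77).

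Vehicle replicate 4 had 19.1 FPKM of lnc-CRHR2, against 36.1 to 37.8 in the other vehicle libraries. Treated replicate 2 had 157 FPKM of lnc-MT-ND6, against 22.8 to 38.2. Treated replicate 5 had 0.491 FPKM of lnc-TTC34, against 0.661 to 0.686. Treated replicate 3 had 45.1 FPKM of lnc-LTBP1, where the other treated libraries had 0 to 0.325. lnc-MRPS27 was flagged in both groups, with 12.2 FPKM in treated replicate 4 (0 to 0.685 in the others) and 36.3 in vehicle replicate 5 (3.51 to 7.36).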

How the results depend on the processing

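The split of calls among the 225 loci moved with the scaling, from 16 higher and 62 lower to 38 higher and 35 lower under median-ratio scaling over annotated lncRNAs, and to 23 higher and 53 lower with the TMM factors of the gene counts, which were added after seeing the data. Leaving out 1 library gave 10 to 21 loci higher and 53 to 69 lower, and among the neighbouring genes 65 to 85 higher and 60 to 78 lower. With a replicate block 13 loci were higher and 58 lower, of which 11 and 55 were calls without it, and 75 neighbours were higher and 65 lower. No treated library correlated best with the vehicle library of its own number, which with 4 libraries per group cannot exclude a shared batch. None of the 31 loci named by the rule changed direction under the alternatives run. Of the other loci named, 2 that did not pass did so: lnc-CSGALNACT1 (-0.13, and 0.07 under median-ratio scaling) and lnc-OR4F16-8 MSTRG.15 (-0.77, and 1.11 without vehicle replicate 2). Depth is unknown for FPKM, which give no count behind a value. Short loci have larger errors, a library listed at 0 need not lack the RNA, and changes of loci near 1 FPKM are understated.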

Other observations

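4 further loci that fell were chosen after their values were seen, and lie by no rule of the report. lnc-POU4F1, 4 exons and 5123 bases, had 4.50, 4.10, 4.29 and 4.09 FPKM in vehicle and 1.82, 1.80, 1.88 and 1.88 in treated libraries (log2 fold change -0.88). It lies 1761 bases from POU4F1, a homeobox gene of sensory and brain neurons, on the same strand, and POU4F1 had a log2 fold change of -1.26. lnc-SOX11, a single exon of 204 bases, lies 83 bases from SOX11, a transcription factor gene of young neurons, and had 18.5, 23.2, 19.8 and 20.1 FPKM in vehicle and 13.1, 13.9, 10.1 and 7.61 in treated libraries (-0.84), beside -0.28 for SOX11. lnc-DAOA, 8248 bases, had 16.6 to 18.2 FPKM in vehicle and 9.90 to 11.8 in treated libraries (-0.65). lnc-FARS2, which lies across NRN1, a gene of neurite growth, had 6.83 to 8.36 and 3.46 to 4.57 FPKM (-0.73), while NRN1 rose by 0.24. The groups did not overlap at any of the 4.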
